A study of Mus musculus with 6 samples.

Results

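Integrins and the adaptors that tie them to the actin cytoskeleton were followed in TuBo cells with and without p140Cap. The 47 genes were taken by symbol from a table of read counts with 21960 genes. They encode 12 integrin α subunits, 8 β subunits, 5 talins and kindlins, 5 proteins of the ILK-PINCH-parvin complex, 6 zyxin-type and LIM-domain adaptors, 2 α-actinins and 9 proteins of the CRK-DOCK-ELMO signalling branch. All 47 had a row, and 39 held enough reads for a test by edgeR's filterByExpr.

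TuBo is an epithelial mammary cancer line of the BALB/c-MMTV-NeuT mouse strain, in which the MMTV promoter drives an activated rat Neu (HER2) oncogene. RNA was sequenced from 3 mock libraries, labelled Balb-NeuT with genotype wt, and 3 libraries labelled as overexpressing p140Cap, all of the same HER2+ cell background. The p140Cap cells carry p140Cap cDNA from the retroviral vector pBabe-puro, were selected with puromycin, and descend from a pool of clones grown from single cells. Differences between those clones and the mock cells that do not come from p140Cap itself cannot be told apart from its effect in this design. The labels call the samples mice in one place and cell lines in another, and they were taken as TuBo cells, which the study describes. The sources used here do not say whether the libraries of a group came from separate cultures, so p-values measure the spread between these libraries, which may be technical.

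Integrins are transmembrane receptors made of an α and a β subunit, and the pairing decides which ligand is bound, be it laminin, collagen, or a matrix protein with an RGD motif. Talin and kindlin bind the β tail and switch the receptor on. ILK, PINCH and parvin, then zyxin, the α-actinins and other LIM proteins, join the clustered receptors to actin, while focal adhesion kinases and the Cas, CRK, DOCK and ELMO proteins relay the signal to Rac. In mammary epithelium, laminin receptors hold the cells on the basement membrane. p140Cap is itself an adaptor that was identified through its binding to p130Cas, a scaffold of this pathway.

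Total reads on genes were 33058719 to 75506562 in mock and 13770385 to 15364850 in p140Cap libraries, so low transcripts were measured less precisely in p140Cap cells. 3 reads corresponded to 0.0392 to 0.0901 CPM (read counts scaled to library size, with TMM factors) in mock and to 0.198 to 0.220 CPM in p140Cap libraries. Srcin1, which encodes p140Cap, stood at 12.8 to 16.6 CPM in mock and at 2244 to 2520 CPM in p140Cap libraries, as the labels state. Epithelial markers summed to 5111 to 5484 CPM in mock and 5969 to 6139 CPM in p140Cap libraries, with Krt19 near 0 in both. Of the 6 tested, 3 were higher and Cldn7 was lower (222 to 166 CPM in the means, log2 fold change −0.41, adjusted p = 5.78e-06). Fibroblast markers summed to 9.97 to 10.5 and 11.3 to 14.1 CPM, and 4 of 7 (Col1a2, Col3a1, Dcn and Lum) had no read. Leukocyte markers summed to 2.16 to 2.37 and 3.31 to 4.22 CPM, nearly all from Cd68, and 5 of 8, with Ptprc, Cd3e, Cd3g and Lyz2 among them, had no read. Endothelial markers summed to 0.270 to 0.528 and 0.613 to 0.923 CPM, and platelet markers to 2.84 to 3.33 and 3.54 to 4.15 CPM. These small marker sums moved with the groups, and their part in the results was not tested.

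The question here is whether the transcripts of the integrin machinery differed between p140Cap and mock cells. By the quasi-likelihood test in edgeR, adjusted after Benjamini and Hochberg, 21 of the 39 tested genes passed an adjusted p of 0.05 (53.8%), where 71.1% of all 11800 tested genes did. Of the 39, 14 were higher in p140Cap cells (35.9%, where 35.2% of all tested genes were) and 7 were lower (17.9%, where 35.9% were). A change of at least 0.5 log2 units was reached by 7 members (17.9%), 4 higher and 3 lower, where the background was 30.8% (15.3% higher and 15.5% lower). Only Itga9 reached 1 log2 unit (2.56% of the tested members), and it was lower, where the background was 9.97% (4.93% higher and 5.04% lower). The groups did not overlap for 25 members, 15 above mock (38.5%) and 10 below (25.6%), where 73.4% of all tested genes did not overlap (36.3% above and 37.2% below). With no size limit, the shares of members that were higher or above mock were thus near those of all tested genes and the shares that were lower or below mock were smaller, and with either size limit the members' shares were smaller. The median log2 fold change of the members was 0.08 and their median absolute change was 0.21, where all tested genes had a median of 0.00 and a median absolute change of 0.32. In bulk RNA, fewer cells of a kind and less RNA per cell cannot be told apart, and this holds for every member described here.

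**Figure D1:**
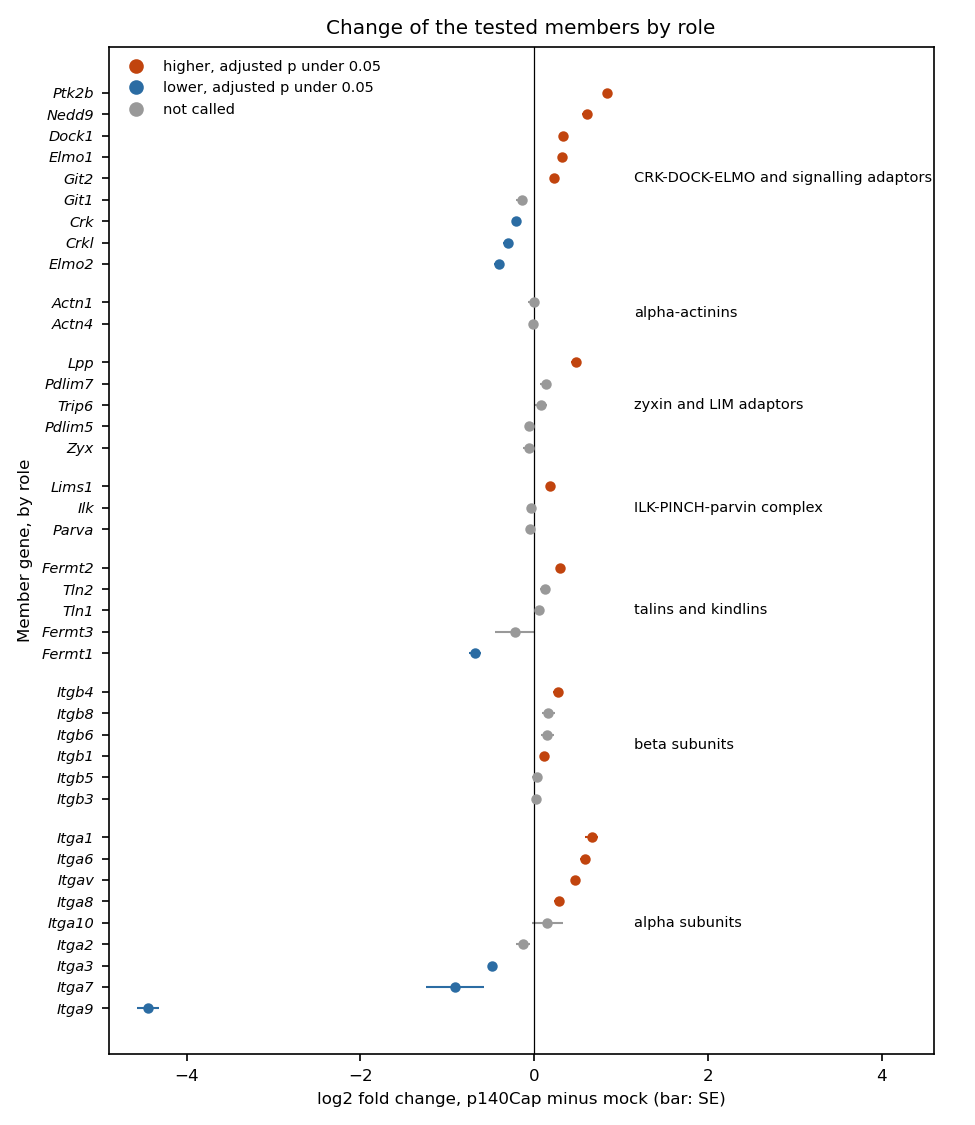
Log2 fold changes of p140Cap over mock cells for the 39 tested members, grouped by role, with bars of 1 SE. Most points lie within 0.5 log2 units of 0, Ptk2b is the highest at 0.84 and Itga9 stands alone at −4.44.

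Among the tested members, the levels per kilobase of exon, which allow genes to be compared, were led by Actn4, an actin crosslinker, with a mean of 287 CPM per kb in mock cells. Itgb1, the common β partner, had 156 CPM per kb in mock and 169 CPM per kb in p140Cap cells. The α subunit with the highest level in mock cells was Itga3 with 79.5 CPM per kb, and in p140Cap cells it was Itga6 with 60.8 CPM per kb. Itgb4 stood at 46.9, Ilk at 42.8 and Crk at 42.2 CPM per kb in mock cells, at ranks 4, 5 and 6 among the members. With the longest annotated transcript as the length they held ranks 6, 7 and 10, so this order depends on the length used.

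Of the 9 α subunits tested, 7 passed the test (77.8%, near the 71.1% of all tested genes), 4 higher and 3 lower in p140Cap cells. The laminin receptors of the epithelium moved in opposite directions, since Itga6 rose and Itga3 fell. The RGD-binding subunits Itgav and Itga8 and the collagen receptor subunit Itga1 rose. Itga9, a subunit that pairs with β1 and binds tenascin-C and osteopontin, was nearly lost.

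Itga9 lies at chr9:118606709-118901003 on the plus strand of GRCm38.p6. In mock cells 1808, 888 and 774 reads were counted, and in p140Cap cells 13, 17 and 16. These reads correspond to 23.6, 22.3 and 23.2 CPM in mock and 0.857, 1.16 and 1.18 CPM in p140Cap libraries. Every p140Cap library was far below every mock library, and every one was above the level of 3 reads. The log2 fold change was −4.44 (SE 0.13, n = 3 per group, adjusted p = 9.72e-14 by edgeR's quasi-likelihood test), which is 21.7-fold lower. On reads pooled within groups, the ratio of mock to p140Cap was 21.9, with 16.4 to 30.0 as its exact 95% interval for counting error alone. Itga9 held position 10 by p-value among the 11800 genes tested. Its log2 fold change stayed between −4.52 and −4.31 when any library was left out. The genes annotated over Itga9 (Gm10157, Gm2415 and Gm70011) are all on the opposite strand, and since the strand setting of the counting was not given, reads from them cannot be told apart from its own.

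Itga3 encodes the α3 laminin receptor subunit, which pairs with β1, and lies at chr11:95044475-95076844 on the minus strand. Its levels were 470, 434 and 484 CPM in mock and 314, 354 and 327 CPM in p140Cap libraries. All p140Cap values were below all mock values, a difference of −0.48 log2 units (SE 0.06, adjusted p = 9.04e-07). Itga6 encodes the α6 subunit (CD49f), which forms laminin receptors with β1 and with the hemidesmosome subunit β4. Itga6, at chr2:71786886-71858427 on the plus strand, showed the opposite difference. It had 470, 477 and 442 CPM in mock and 710, 716 and 651 CPM in p140Cap libraries, again without overlap. The difference was 0.58 log2 units (SE 0.05, adjusted p = 3.72e-08). 4 predicted genes with Gm names overlap Itga6 on its own strand, so a part of its reads may belong to them. Of the 47 members, 18 are overlapped in this way by a gene on their own strand, and the same limit holds for Itga7, Itga8, Fermt1, Fermt2, Lpp, Actn4, Dock1, Elmo1, Nedd9, Ptk2b and Git2 among those described in detail here. Counting both strands, 38 of the 47 are overlapped. With the strand setting unknown, the limit given for Itga9 holds for these too. Among them are Ilk (Rrp8 and Taf10), Itgb4 (Galk1), Tln1 (Creb3) and Zyx (Epha1 and Fam131b).

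Within a library the number of Itga3 reads per Itga6 read was 1.00, 0.911 and 1.10 in mock and 0.442, 0.494 and 0.503 in p140Cap cells. The groups of this ratio did not overlap. An exact two-sided permutation test of 3 against 3 libraries cannot go below p = 0.1, so no such test could pass for any ratio. In all, 13 such ratios of reads were computed. That of Itgb4 over Itgb1 overlapped, at 0.329 to 0.389 in mock and 0.381 to 0.455 in p140Cap libraries. Itga3 reads per Itgb4 read went from a mean of 1.37 ± 0.0178 to 0.811 ± 0.0260 (SD, n = 3), and Itga6 reads per Itgb1 read went from 0.496 ± 0.0120 to 0.687 ± 0.0453, both without overlap.

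Promoter sequences are shown for Itga3 and Itga1, α subunits that moved in opposite directions, and for Fermt1, the kindlin that fell, so that the bases upstream of genes with different responses can be read side by side. They are the 250 bases before the RefSeq start in GRCm38.p6, written 5′ to 3′ on the gene's own strand, which is minus for all 3. The start used for Itga3 lies inside the annotated gene, so that 130 of its 250 bases fall within the gene span given above. Itga3 is chr11:95076715-95076964, Itga1 is chr13:115101965-115102214 and Fermt1 is chr2:132946037-132946286. Capitals mark the GC box GGGCGG, the core to which Sp1-type factors bind.
Itga3: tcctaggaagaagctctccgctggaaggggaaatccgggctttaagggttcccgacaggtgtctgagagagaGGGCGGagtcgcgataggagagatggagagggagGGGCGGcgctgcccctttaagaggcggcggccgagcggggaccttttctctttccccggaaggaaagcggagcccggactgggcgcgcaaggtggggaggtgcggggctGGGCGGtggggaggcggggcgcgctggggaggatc
Itga1: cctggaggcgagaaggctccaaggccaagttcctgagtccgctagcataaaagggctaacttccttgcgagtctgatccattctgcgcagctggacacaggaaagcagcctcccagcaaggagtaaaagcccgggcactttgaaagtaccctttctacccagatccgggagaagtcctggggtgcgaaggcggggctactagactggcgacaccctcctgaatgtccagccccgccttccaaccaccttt
Fermt1: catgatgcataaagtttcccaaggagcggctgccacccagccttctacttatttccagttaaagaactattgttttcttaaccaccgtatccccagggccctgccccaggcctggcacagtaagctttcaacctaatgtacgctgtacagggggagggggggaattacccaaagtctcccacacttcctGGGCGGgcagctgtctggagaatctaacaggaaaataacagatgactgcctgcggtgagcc
The letters were searched on both strands, and motifs may overlap. Itga3 held 3 GC boxes, Fermt1 held 1 and Itga1 held none. None of the 3 held the AP-1 motif TGANTCA or the TEAD motif GGAATG. Among 32851 mouse promoters of this length, 32.7% held a GC box, 6.75% the AP-1 motif and 12.6% the TEAD motif. Of the members, 37 were in the promoter table and 32 had an entry within 1000 bases of the gene start. Of those 32, 21 held a GC box, 2 the AP-1 motif and 4 the TEAD motif in such an entry. The 32851 promoters were counted per entry and without the limit of 1000 bases. Their shares are therefore not a like background for these member counts. A match of letters is a description and not a binding site.

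Itga1, the α1 subunit of a collagen receptor, lies at chr13:114958079-115101964 on the minus strand. It had 18.2, 17.3 and 15.8 CPM in mock and 27.5, 25.5 and 28.6 CPM in p140Cap libraries. The groups were well apart, at 0.66 log2 units (SE 0.07, adjusted p = 5e-07). Pelo and Gm49395 overlap Itga1 on the same strand. The other collagen receptor subunits did not pass. Itga2 had 20.2 ± 1.44 CPM in mock and 18.5 ± 1.75 CPM in p140Cap libraries (SD, n = 3, log2 fold change −0.13, adjusted p = 0.161). Itga10 had 1.63 to 2.16 and 1.98 to 2.35 CPM (log2 fold change 0.15, adjusted p = 0.464). The ranges of both overlapped between groups.

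Itgav, the αv subunit that pairs with several β chains and binds RGD ligands, had 168, 163 and 149 CPM in mock and 226, 223 and 217 CPM in p140Cap libraries. Its p140Cap libraries were all higher, at 0.47 log2 units (SE 0.05, adjusted p = 3.84e-07). Itga8, whose α8β1 product is the receptor of nephronectin, had 250, 246 and 227 CPM in mock and 304, 291 and 284 CPM in p140Cap libraries. It too was higher in every p140Cap library (log2 fold change 0.28, SE 0.05, adjusted p = 1.09e-04). Reads of Itga9 per read of Itga8, another partner of β1, went from a mean of 0.0958 in mock to 0.00364 in p140Cap cells, without overlap.

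Itga7, a laminin receptor subunit best known from muscle, was low. It had 53, 31 and 26 reads in mock and 5, 7 and 5 reads in p140Cap libraries, or 0.693, 0.779 and 0.781 against 0.330, 0.477 and 0.367 CPM. The p140Cap values were all below mock, at −0.91 log2 units (SE 0.33, adjusted p = 0.0216). The call was lost with DESeq2 (adjusted p = 0.0894), without p140Cap replicate 1 (0.093) and without p140Cap replicate 3 (0.0644). With libraries thinned to the smallest total it was −1.53 log2 units and passed. The remaining α subunits had too few reads for a test. Itga4, which pairs with β1 or β7, had no read in any library, which allows up to the CPM of 3 reads given above. Itga5, the classical fibronectin receptor subunit, had 2, 1 and 1 reads in mock and none in p140Cap libraries, and Itga11, a collagen receptor subunit, had 1 to 3 reads in every library. At these depths a difference was not detectable.

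**Figure D2:**
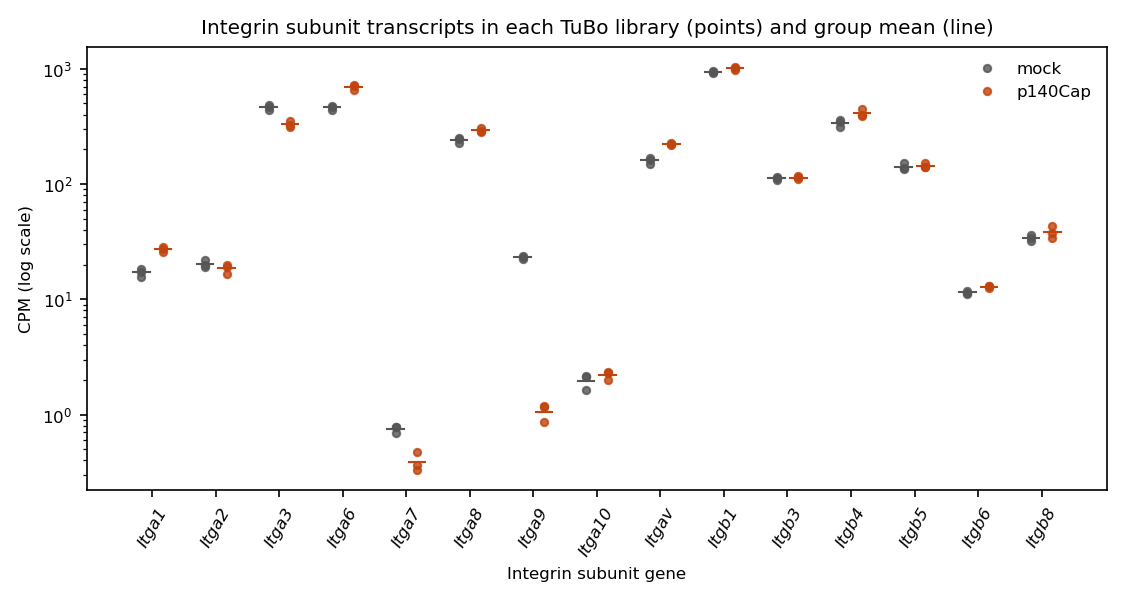
CPM per library, on log axes, of integrin subunits in the 3 mock and 3 p140Cap libraries, with group means as lines. Itga9 falls from 22.3 to 23.6 CPM to 0.857 to 1.18 CPM, and Itga3 and Itga6, which overlap in mock, lie apart in p140Cap libraries.

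Of the 6 β subunits tested, 2 passed (33.3%, where 71.1% of all tested genes did), both higher in p140Cap cells. Itgb1, the partner of most α subunits here, had 930, 951 and 915 CPM in mock and 1032, 979 and 1017 CPM in p140Cap libraries. The groups were separate but close, at 0.11 log2 units (SE 0.05, adjusted p = 0.0334). That call is not stable. It was lost without mock replicate 1 (adjusted p = 0.093), without mock replicate 3 (0.087), without p140Cap replicate 1 (0.163) and without p140Cap replicate 3 (0.1), and also without a filter (0.159) and with libraries thinned to the smallest total (0.0818). Itgb4, the hemidesmosome subunit that pairs with α6, had 347, 313 and 356 CPM in mock and 393, 446 and 389 CPM in p140Cap libraries. It was higher in every p140Cap library (log2 fold change 0.28, SE 0.06, adjusted p = 6.87e-04).

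The αv partners differed little between groups. Itgb3 had 107 to 116 CPM in mock and 110 to 116 CPM in p140Cap libraries (log2 fold change 0.02, adjusted p = 0.725). Itgb5 had 136 to 151 and 139 to 154 CPM (0.03, adjusted p = 0.614). Since Itgav rose, reads of Itgb5 per read of Itgav went from a mean of 0.889 ± 0.106 to 0.651 ± 0.0369 (SD, n = 3), without overlap. Itgb6, which activates latent TGF-β with αv, had 11.5 ± 0.407 and 12.8 ± 0.318 CPM (SD, n = 3), above mock in every p140Cap library but not past the test (0.15, adjusted p = 0.0926). Itgb8 had 32.1 to 36.5 and 34.3 to 43.0 CPM (0.16, adjusted p = 0.0635) and passed without mock replicate 1 (adjusted p = 0.0346) or without p140Cap replicate 2 (adjusted p = 0.00988). When any library was left out, the log2 fold change of Itgb8 lay between 0.067 and 0.23. The leukocyte subunit Itgb2 had at most 2 reads in a library. Itgb7, the partner of α4 and αE in lymphocytes, had 30, 17 and 13 reads in mock and 4, 4 and 2 reads in p140Cap libraries, too few for the filter. Without the filter its adjusted p was 0.187.

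Expressed as CPM per kb of exon, the summed α subunits were 163 ± 3.47 in mock and 167 ± 5.76 in p140Cap cells (SD, n = 3), and the library ranges overlapped. The summed β subunits were 245 ± 1.70 and 269 ± 2.39, and every p140Cap library was above every mock library. Within the α sum, the share of Itga3 was 48.9% ± 2.28 in mock and 34.0% ± 1.57 in p140Cap cells, and that of Itga6 was 25.0% ± 1.17 and 36.3% ± 0.949. Itga6 thus took the first place among α transcripts that Itga3 had held. Itga8 went from 13.7% to 16.2%, Itgav from 7.98% to 10.8% and Itga9 from 1.84% to 0.0822%, each without overlap. Within the β sum, Itgb1 had 63.8% ± 1.68 and 62.9% ± 1.90, which overlapped. Itgb4 had 19.1% and 21.1%, above mock in every p140Cap library, and Itgb3 had 6.93% and 6.39%, below mock in every one. With the longest annotated transcript as the length, Itga3 was at 40.6% and 26.6% and Itga6 at 30.1% and 41.1%, so the order in each group was the same with either length.

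**Figure D3:**
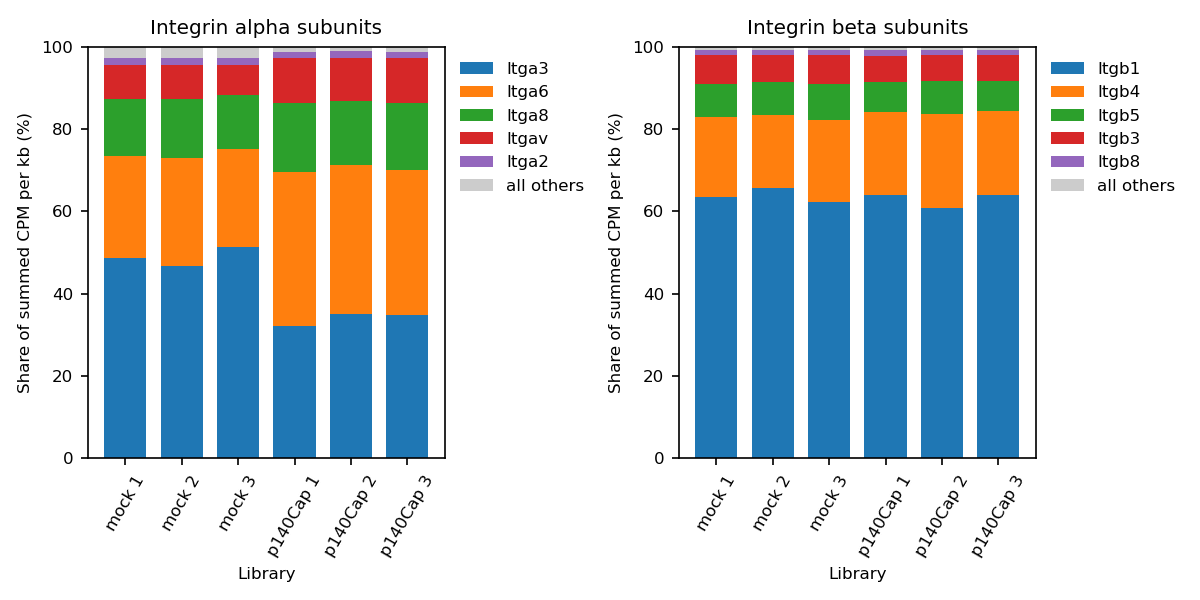
Share of each subunit in the summed CPM per kb of exon of the α subunits and of the β subunits, in percent, for each library. Itga3 takes 48.9% of the α sum in mock and 34.0% in p140Cap cells, while Itgb1 holds 63.8% and 62.9% of the β sum.

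Of the 5 talins and kindlins, which bind β tails and activate integrins, 2 passed (40.0%, where 71.1% of all tested genes did), 1 in each direction. Tln1, the broadly used talin, had 359, 336 and 363 CPM in mock and 347, 389 and 361 CPM in p140Cap libraries. These ranges overlapped (log2 fold change 0.05, adjusted p = 0.406). Tln2 had 143 to 162 and 160 to 178 CPM (0.12, adjusted p = 0.0588) and passed without mock replicate 1 (adjusted p = 0.0372) and with libraries thinned to the smallest total (0.0402). With any library left out, the log2 fold change of Tln2 was 0.072 to 0.16.

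The kindlins separated. Fermt1, kindlin-1 of epithelia, lies at chr2:132904177-132946036 on the minus strand and had 34.1, 35.2 and 31.8 CPM in mock and 20.3, 23.1 and 19.8 CPM in p140Cap libraries. Every p140Cap library was lower (log2 fold change −0.68, SE 0.07, adjusted p = 2.68e-07). Fermt2, the widely expressed kindlin-2, had 181, 183 and 178 CPM in mock and 233, 217 and 217 CPM in p140Cap libraries. Every p140Cap library was higher (0.30, SE 0.05, adjusted p = 2.8e-05). Reads of Fermt1 per read of Fermt2 went from a mean of 0.186 ± 0.00683 to 0.0949 ± 0.0101 (SD, n = 3), without overlap. Fermt3, the kindlin of blood cells, was at 1.26 to 1.77 and 1.09 to 1.32 CPM and did not pass (−0.22, adjusted p = 0.384).

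In the ILK-PINCH-parvin complex, 3 of 5 genes were tested and Lims1 passed (33.3%, where 71.1% of all tested genes did). Lims1, which encodes PINCH-1, had 265, 267 and 245 CPM in mock and 299, 286 and 298 CPM in p140Cap libraries. It was higher in every p140Cap library, by a small amount (log2 fold change 0.18, SE 0.05, adjusted p = 0.00334). Ilk, the pseudokinase at the core of the complex, had 124, 124 and 128 CPM in mock and 123, 121 and 121 CPM in p140Cap libraries (−0.04, SE 0.04, adjusted p = 0.423). Parva, the α-parvin that binds actin, had 215 to 223 and 209 to 214 CPM (−0.05, SE 0.04, adjusted p = 0.305). For both, every p140Cap library was below every mock library, but the differences did not pass the test. Parvb had 0 to 3 reads in a library and Lims2 had 0 to 5.

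Of the zyxin-type and LIM adaptors, Lpp was the 1 of 5 tested to pass (20.0%, where 71.1% of all tested genes did). Lpp, a zyxin relative that binds α-actinin, had 219, 205 and 190 CPM in mock and 300, 285 and 271 CPM in p140Cap libraries. The groups were apart, at 0.48 log2 units (SE 0.06, adjusted p = 1.22e-06). Pdlim5, with the highest mean CPM of this group over all 6 libraries, though below Lpp in p140Cap cells, had 269, 260 and 258 CPM in mock and 256, 253 and 245 CPM in p140Cap libraries. It was slightly lower in each p140Cap library, short of the threshold (−0.06, adjusted p = 0.242). Zyx itself had 96.0 to 116 CPM in mock and 96.0 to 109 CPM in p140Cap libraries (−0.06, adjusted p = 0.406). Trip6, another zyxin relative, had 87.1 to 106 and 91.0 to 107 CPM (0.08, adjusted p = 0.353) and passed without mock replicate 3 (adjusted p = 0.0296). Its log2 fold change ranged from 0.014 to 0.16 when any library was left out. Pdlim7 had 112 to 126 and 125 to 145 CPM (0.13, adjusted p = 0.0676) and passed without mock replicate 3 (0.0492) or p140Cap replicate 1 (0.0402). Leaving out any library put Pdlim7 between 0.057 and 0.17 log2 units. Tgfb1i1, the paxillin relative Hic-5, had 17, 10 and 5 reads in mock and 4, 2 and 6 reads in p140Cap libraries and was not tested.

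Neither α-actinin passed. Actn4 had 2475, 2315 and 2595 CPM in mock and 2347, 2611 and 2378 CPM in p140Cap libraries, and the log2 fold change was −0.01 (adjusted p = 0.885). Actn1 had 145 to 153 and 137 to 167 CPM (−0.01, adjusted p = 0.93). Both changed sign with some libraries left out, so they have no direction.

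In the signalling branch 8 of 9 genes passed (88.9%, where 71.1% of all tested genes did), with 5 higher and 3 lower in p140Cap cells. Ptk2b and Nedd9 led it. Ptk2b encodes PYK2, the close relative of focal adhesion kinase, and lies at chr14:66153257-66281100 on the minus strand. It had 47.1, 46.3 and 46.4 CPM in mock and 83.7, 85.9 and 80.8 CPM in p140Cap libraries. The libraries of each group were tight and the groups far apart, at 0.84 log2 units (SE 0.05, adjusted p = 2.47e-10). Nedd9, a Cas-family scaffold like p130Cas, lies at chr13:41309916-41487362 on the minus strand. It had 53.3, 51.3 and 53.5 CPM in mock and 79.0, 86.0 and 76.4 CPM in p140Cap libraries, again without overlap (0.61, SE 0.05, adjusted p = 3.39e-08).

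The SH2-SH3 adaptors that dock on Cas proteins were both lower. Crk had 226, 239 and 225 CPM in mock and 203, 190 and 204 CPM in p140Cap libraries (log2 fold change −0.21, SE 0.05, adjusted p = 0.00127). Crkl had 52.8, 53.7 and 50.6 CPM in mock and 43.1, 42.2 and 42.2 CPM in p140Cap libraries (−0.30, SE 0.05, adjusted p = 7.27e-05). The groups did not overlap for either gene.

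DOCK1 and an ELMO protein together form an exchange factor for Rac. Dock1 had 178, 171 and 166 CPM in mock and 218, 221 and 212 CPM in p140Cap libraries and was higher in each (0.34, SE 0.05, adjusted p = 7.15e-06). Elmo1 had 94.6, 94.4 and 92.7 CPM in mock and 120, 122 and 111 CPM in p140Cap libraries (0.33, SE 0.05, adjusted p = 1.61e-05). Elmo2 moved the other way, with 50.6, 52.0 and 50.5 CPM in mock and 37.8, 36.2 and 41.8 CPM in p140Cap libraries (−0.40, SE 0.06, adjusted p = 1.07e-05). The ELMO paralogs thus changed in opposite directions, and reads of Elmo1 per read of Elmo2 went from a mean of 1.84 ± 0.0283 to 3.06 ± 0.364 (SD, n = 3), without overlap.

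The GIT proteins are Arf GTPase-activating scaffolds that bind paxillin and PIX. Git2 had 98.3, 95.3 and 98.1 CPM in mock and 115, 114 and 111 CPM in p140Cap libraries and was higher in each (0.22, SE 0.05, adjusted p = 3.5e-04). Git1 had 70.7 to 83.5 and 66.9 to 73.2 CPM, which overlapped, and did not pass (−0.14, adjusted p = 0.0533). Git1 passed without mock replicate 2 (adjusted p = 0.0104), without p140Cap replicate 2 (0.0206), with RLE factors (0.0477), without a filter (0.00707) and with at least 10 reads in every library (0.0424). Its log2 fold change lay between −0.19 and −0.082 when any library was left out. Reads of Git1 per read of Git2 went from 0.785 ± 0.0583 to 0.609 ± 0.0280 (SD, n = 3).

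**Figure D4:**
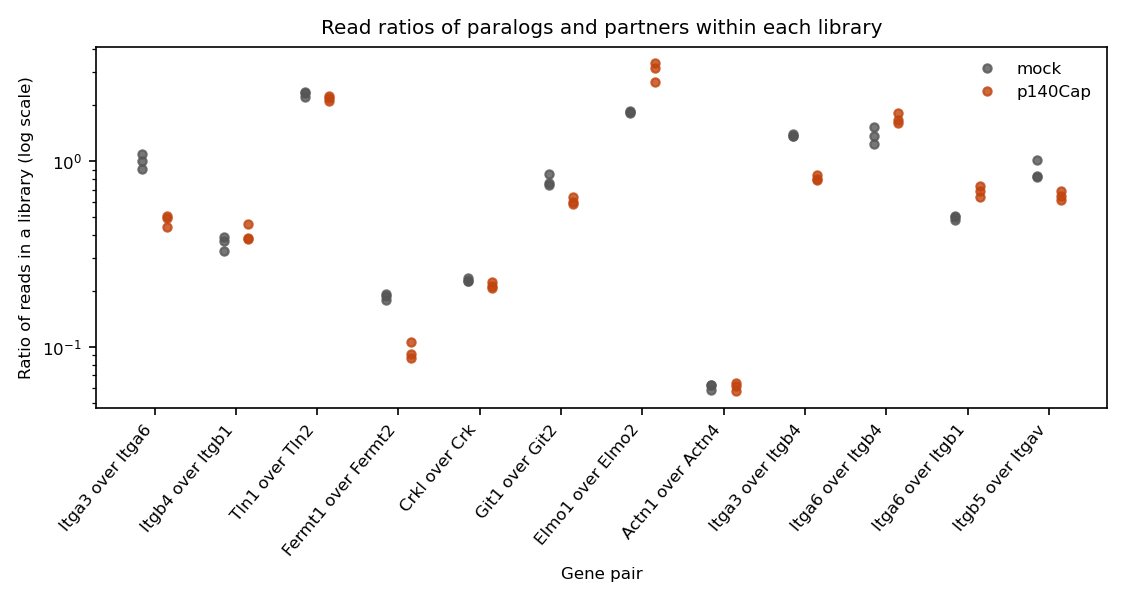
Ratio of reads of paired genes in each library, on a log axis, for mock and p140Cap cells. Itga3 over Itga6, Fermt1 over Fermt2 and Git1 over Git2 are lower and Elmo1 over Elmo2 is higher in every p140Cap library, while Tln1 over Tln2 (means 2.29 and 2.18) and Actn1 over Actn4 (means 0.0610 and 0.0609) overlap.

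Other proteins of the focal adhesion were read from a list of 39 genes, of which 38 were tested and 29 passed (76.3%, near the 71.1% of all tested genes), 17 higher and 12 lower in p140Cap cells. Over the list the median was 0.04 log2 units, where that of all tested genes was 0.00, and 1 gene reached 1 log2 unit (2.63%, where 9.97% of all tested genes did). That gene was Cav1, the coat protein of caveolae, which had 49.2, 50.4 and 46.2 CPM in mock and 19.9, 18.3 and 21.3 CPM in p140Cap libraries (log2 fold change −1.30, SE 0.07, adjusted p = 6.41e-11). Next came Kank2, a talin-binding protein, with 0.69 (adjusted p = 1.5e-06), Arhgef6, the PIX exchange factor that binds GIT proteins, with 0.68 (1.04e-06), and the tetraspanin Cd81 with 0.67 (1.88e-09). All 3 were higher in every p140Cap library.

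Named after their values were seen, because they sit directly beside members, were paxillin, the kinases and the scaffold that p140Cap binds. Pxn had 143, 129 and 146 CPM in mock and 186, 207 and 192 CPM in p140Cap libraries (log2 fold change 0.49, adjusted p = 9.5e-07). Bcar1, which encodes p130Cas, had 60.5 to 69.0 and 72.0 to 87.2 CPM (0.26, adjusted p = 0.00358), and its log2 fold change was 0.16, still past the test, without p140Cap replicate 2. Ptk2, focal adhesion kinase itself, had 139 to 142 and 157 to 165 CPM (0.20, adjusted p = 7.75e-04). Vcl, vinculin, rose (0.32, adjusted p = 6.33e-05) and the actin crosslinker Flna fell (−0.47, adjusted p = 1.09e-06). Src had 169 to 194 and 170 to 200 CPM and did not pass (−0.01, adjusted p = 0.896), and its sign changed with some libraries left out. Its relative Fyn rose, with 34.4, 34.7 and 34.8 CPM in mock and 54.2, 50.6 and 52.3 CPM in p140Cap libraries (0.60, SE 0.05, adjusted p = 3.24e-08). Csk, the kinase that inhibits Src and also binds p140Cap, overlapped between groups and did not pass (−0.11, adjusted p = 0.134), but passed without a filter (0.0292), without mock replicate 2 (0.0287) and without p140Cap replicate 2 (0.0297). When any library was left out, Csk lay between −0.17 and −0.058 log2 units.

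Ligands of integrins were read from a list of 39 genes. Only 21 had enough reads for a test, and 17 of these passed (81.0%, where 71.1% of all tested genes did), 10 higher and 7 lower in p140Cap cells. A change of at least 1 log2 unit was reached by 7 ligands (33.3% of those tested, against 9.97% of all tested genes), 2 higher and 5 lower. Of the receptors and adaptors, 2.56% reached that size. The median log2 fold change of the list was 0.10. No read was found in any library for Vtn, Thbs2, Nov, Edil3, Lama1, Lamc3, Col1a2, Col3a1 or Vcam1.

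Npnt encodes nephronectin, the basement membrane ligand of α8β1. It had 72.9, 71.2 and 69.6 CPM in mock and 332, 339 and 341 CPM in p140Cap libraries. The groups were tight and far apart, and Npnt was 4.73-fold higher (log2 fold change 2.24, SE 0.05, adjusted p = 1.46e-15), at position 5 by p-value among all genes tested. Its receptor subunit Itga8 was higher by 0.28 log2 units, as given above.

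Fn1, fibronectin, had 483, 195 and 173 reads in mock and 1, 2 and 2 reads in p140Cap libraries. Fn1 was thus at −5.55 log2 units (SE 0.32, adjusted p = 2.03e-10), and the ratio of pooled reads of mock to p140Cap was 49.5, with a 95% exact interval of 21.1 to 153. Fn1 was low even in mock cells, at 4.90 to 6.31 CPM. Among subunits that can bind fibronectin, not all of which are listed here, Itga5 and Itga4 were at the limit of detection. Itgav and Itga8 were expressed at the levels given above. Tnc, tenascin-C, a ligand of α9β1, had 37.5 ± 1.65 CPM in mock and 15.2 ± 2.42 CPM in p140Cap libraries (SD, n = 3), −1.30 log2 units (SE 0.09, adjusted p = 1.1e-09). The αv ligand Postn, periostin, fell as well (−1.36, adjusted p = 2.71e-08). Other ligands of the list rose. Mfge8 had means of 1226 CPM in mock and 1515 CPM in p140Cap libraries (0.30, adjusted p = 2.29e-04). Thbs1 had means of 372 and 512 CPM (0.46, adjusted p = 8.17e-06). Spp1, osteopontin, which binds αv, α8 and α9 integrins, was among the abundant transcripts, with 3946 to 4065 CPM in mock and 4550 to 5039 CPM in p140Cap libraries (0.27, adjusted p = 1.14e-04). Ctgf, a matricellular ligand, was low and fell (−2.45, SE 0.27, adjusted p = 4.08e-07), with 148, 84 and 69 reads in mock and 6, 6 and 4 reads in p140Cap libraries.

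The laminin chains, ligands of the α3 and α6 integrins, did not move as a block. Lamb3 fell, with 28.7, 26.7 and 27.4 CPM in mock and 9.03, 11.6 and 8.30 CPM in p140Cap libraries (log2 fold change −1.52, SE 0.09, adjusted p = 5.12e-10). Lama5 had 594, 486 and 601 CPM in mock and 816, 934 and 827 CPM in p140Cap libraries (0.62, adjusted p = 1.04e-06). Lamb2 had 130 to 153 and 249 to 287 CPM (0.89, adjusted p = 2.66e-09). Both were higher in every p140Cap library. Lama4 rose too, with means of 218 CPM in mock and 295 CPM in p140Cap libraries (0.43, adjusted p = 5.2e-07). Lamb1 fell, with means of 198 and 163 CPM (−0.28, adjusted p = 1.58e-04). Lamc1 overlapped, with 370 to 405 and 388 to 436 CPM (0.10, adjusted p = 0.122), and passed with libraries thinned to the smallest total (0.0463). Lama3, whose chain joins that of Lamb3 in epithelial laminin, had 5, 4 and 1 reads in mock and none in p140Cap libraries.

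**Figure D5:**
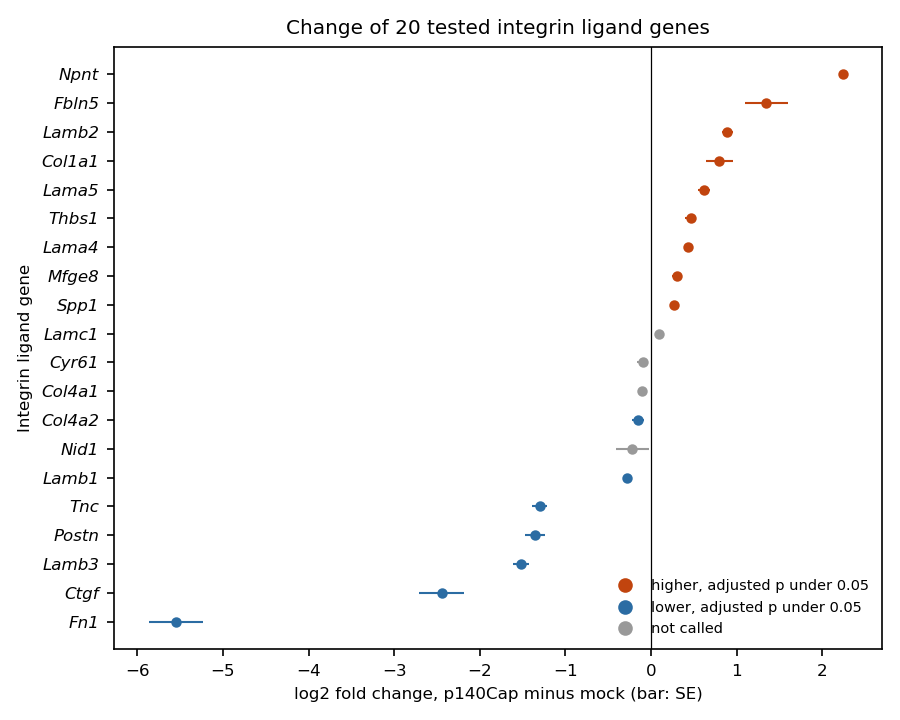
Log2 fold changes of p140Cap over mock cells for 20 of the 21 tested integrin ligands, with bars of 1 SE. Npnt lies at 2.24, Fn1 at −5.55, and the laminin chains Lamb2 and Lama5 on the opposite side of 0 from Lamb3.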

How the data were processed

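RNA-Seq counts of TuBo cells were analysed, with 3 mock and 3 p140Cap libraries. The authors deposited counts, that is, whole numbers of reads per gene without normalization, made per the labels' processing notes with STAR 2.5 and RSEM 0.1.1 on mm10. The study's methods name stranded TruSeq libraries and docker4seq. RSEM estimates need not be whole, so the counts may be rounded estimates, and whether strand was used in counting is not given in the sources.

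Counts of all genes were tested in R 4.3.3 with edgeR 4.0.16 by quasi-likelihood (TMM factors, filterByExpr by group, condition the one term, Benjamini-Hochberg adjusted, threshold 0.05). SE is the absolute log2 fold change over the square root of F. On simulated counts for this comparison, 96.5% of 198 changed genes among 11731 tested were recovered, and 6.37% of calls were unchanged genes. In the data 71.1% of tested genes were called, so these rates were not checked where that many genes change. Pairs of libraries of a group had a mean chi-square of 1.75 to 10.7 over genes, so none was a copy of another, and the common coefficient of biological variation was 4.57%. Depth was 13770385 to 75506562 reads, and intervals cover counting error only. Lengths and overlapping genes came from GENCODE M39 (GRCm39), where 47 of 47 members matched by Ensembl identifier, and positions and promoters from RefSeq GRCm38.p6.

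Members and lists were chosen with earlier results of these data known. Values in every library are given by rule for members called with at least 0.5 log2 units and the member with the highest mean CPM of each role. In other lists at most 4 called genes, those with the largest changes, are named by rule. Every other member is accounted for by role. Other genes described further, by values in every library, ranges, means or fold changes (Itga3, Itga8, Itgav, Itgb4, Fermt2, Ilk, Lpp, Crkl, Dock1, Elmo1, Elmo2, Git2, the genes without a test, Pxn, Bcar1, Ptk2, Vcl, Flna, Src, Fyn, Csk, Tnc, Postn, Mfge8, Thbs1, Spp1 and the laminin chains beside Lamb3) were named after their values were seen. Alternatives were RLE and upper-quartile factors, DESeq2 1.42.0, voom of limma 3.58.1, no filter, at least 10 reads in every library, thinning to the smallest total, each library left out, and the replicate number as a block. Values of 1 tested ligand, which counts in the list, are not reported here.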

Additional observations from a re-analysis of the deposited data

How the results depend on the processing

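The 14 alternatives gave 19 to 23 members called (21 as reported), 13 to 15 higher and 6 to 8 lower, and 6 to 9 with at least 0.5 log2 units, a limit added after seeing the data. With each library left out, these counts were 19 to 23 called members, 24 to 29 focal adhesion genes (29 with all libraries) and 16 to 19 ligands (17 with all libraries). Of the 21 called members, 19 passed in every alternative that tested them; the exceptions were Itga7 and Itgb1. Members called with at least 1 log2 unit numbered 1 with all libraries and 2 when libraries were thinned to the smallest total or p140Cap replicate 2 was left out, since Itga7 then passed 1 log2 unit. The cause was not tested. The sign turned for 5 members that were not called, and leaving out 1 library at a time gave the ranges that follow. Itgb3 was −0.010 without a filter and lay between −0.012 (without mock replicate 2) and 0.038. Itgb5 lay between −0.016 (without p140Cap replicate 2) and 0.074. Zyx lay between −0.13 and 0.000598 (without mock replicate 3). Actn1 lay between −0.095 and 0.048, above 0 without mock replicate 1 (0.0089), p140Cap replicate 1 (0.016) and p140Cap replicate 3. Actn4 lay between −0.061 and 0.025 (without mock replicate 3), and was 0.017 and 0.0067 without p140Cap replicates 1 and 3. Src, no member, lay between −0.093 and 0.033 (without mock replicate 3), and was 0.032 and 0.020 without p140Cap replicates 1 and 3. The scaling alternatives moved the median of all genes by at most 0.01. With the longest transcript as gene length, 75 of 92 group levels per kb moved by more than the SD over the 3 libraries and 17 by less.

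The replicate numbers did not pair the libraries, with correlations of same-numbered libraries of −0.0299, −0.106 and −0.0573. With the replicate block, 21 members, 25 focal adhesion genes and 16 ligands were called, and among members Itgb1 no longer passed (adjusted p = 0.0695) while Itgb8 did (adjusted p = 0.0479). The p140Cap depth limits low genes such as Itga5, Itga7 and Itgb7.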

Other observations

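Libraries of a group did not deviate alike for the members. Of the 39 tested members, 21 had their highest p140Cap value in p140Cap replicate 2 (53.8%, where 39.4% of all tested genes did) and 22 had their lowest in p140Cap replicate 3 (56.4%, where 32.7% did). In mock cells, 1 member had its lowest value in mock replicate 1 (2.56%, where 25.3% of all tested genes did). These shares are descriptions of 6 libraries, without a test. Itga2b, an αIIb subunit outside the 47 genes that is known from platelets, had 2.01, 1.91 and 2.49 CPM in mock and 3.30, 2.72 and 2.86 CPM in p140Cap libraries (log2 fold change 0.49, adjusted p = 0.0145 by edgeR's quasi-likelihood test), while of the other platelet genes read, Gp1bb had 60, 46 and 27 reads in mock and 11 in each p140Cap library and did not pass (adjusted p = 0.468), and Pf4, Ppbp and Gp9 had at most 2 reads in a library.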
